A study of Mus musculus with 45 samples.

Results

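Of the 45 arrays of a mouse glioblastoma series, 8 came from tumours with the genotype EGFRvIII;p53null. Arrays with the title numbers 44, 45 and 48, called the 3 arrays here, were compared with arrays 41, 42, 43, 46 and 47, called the 5 arrays. The split was not a label of the study. It followed an earlier look at these data, in which the 3 arrays stood apart and their genes gave the names mesenchymal-like and progenitor-like. All differences between the 3 and the 5 are therefore a description without a test, and nothing is supported by them.

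EGFRvIII is a truncated, constitutively active form of the epidermal growth factor receptor that is found in human glioblastoma. Per the labels, all tumours, the EGFRvIII and the PDGFRA-driven ones, lacked p53 and were listed under the mouse strain CD-1 nude, an athymic line without mature T cells. The other 37 arrays came from tumours driven by platelet-derived growth factor receptor alpha, named in the labels as Pdgfra V544ins (9 arrays), Pdgfra E10 del.v2 (9), Pdgfra C450 ins (5), Pdgfra D842V (5), Pdgfra E10 del (5), Pdgfra E7 del (3) and Pdgfra WT, the unmutated receptor (1). The series description speaks of retroviral constructs and cultured p53-null primary mouse astrocytes for the PDGFRA forms. Neither the vector of EGFRvIII nor the age of the mice is stated in the labels. Nothing in the labels says that the arrays of one genotype came from separate animals, so the spread between them may be in part technical.

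Gliomas are commonly grouped by their expression into forms that resemble oligodendrocyte progenitors and forms with a mesenchymal programme. Oligodendrocyte progenitors depend on the transcription factors Olig2 and Sox10, respond to PDGF through Pdgfra, and pass through a stage marked by the receptor Gpr17 before they make myelin. The mesenchymal form is known for Cd44, Met, annexins, galectins and matrix proteins, for the transcription factors Cebpb, Fosl1 and Runx1 and the YAP/TAZ-TEAD system, and for a high content of macrophages.

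Values are log2 signals, on which a difference of 1 is a doubling. They are listed in the order of arrays 44, 45 and 48, and then 41, 42, 43, 46 and 47. Each of 17097 genes was read from 1 probe set, and 11809 genes were kept because at least 3 of the 45 arrays exceeded 4.79, the median of the table. A gene is called higher or lower in the 3 arrays where the 3 values and the 5 values did not overlap and the means differed by at least 1. In tissue RNA, fewer cells of a type and less RNA per cell cannot be told apart.

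By that rule 852 genes were higher in the 3 arrays, 7.21% of the genes kept, and 834 were lower, 7.06%. These include 285 genes higher and 316 lower by at least 2, and the median difference over all genes was 0.02. Of the 852 genes, 56 passed the filter on dim genes only through the 3 arrays themselves, so that they had to be higher. Counts in each list below stand beside the shares over all genes, 7.21% higher and 7.06% lower. Genes just inside the rule were Nfkbil1 with a difference of 1.0 and Limd2 with 1.002, and just outside it were Rnmt with 0.997 and Mre11a with 0.996. On principal component 2 of all 45 arrays, which held 13.64% of the variance, arrays 44, 45 and 48 had the 3 highest scores, 103.0, 82.9 and 68.27. The 5 arrays scored between -20.43 and 0.11. Principal components over all arrays were the basis of the split, so these scores are no support for it. Pairs within the 3 arrays correlated across genes at r from 0.909 to 0.922, pairs within the 5 at 0.836 to 0.95, and pairs between the sets at 0.724 to 0.89. Genes are not independent replicates, and these correlations are given as a description.

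Signs of RNA and array quality did not separate the sets. For Actb the 3' probe set exceeded the 5' one by 0.64, 0.48 and 0.64 in the 3 arrays and between 0.63 and 0.87 in the 5, and for Gapdh by 0.07 to 0.38 and 0.07 to 0.29. All 8 arrays lay in the upper of the 2 ranges of title numbers, 41 to 64.

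Of the 5 marker genes Arg1, Met, Hmga2, Olig2 and Gpr17, the first 3 were higher and the last 2 lower in the 3 arrays. Arg1, the enzyme that splits arginine and is known from liver and from alternatively activated macrophages, was at 10.97, 11.53 and 7.93 in the 3 arrays and at 6.55, 3.43, 4.06, 3.82 and 7.18 in the 5. The 3 values spread over more than 3 units and the lowest, in array 48, lay within 1 unit of array 47, the highest of the 5. The mean was 35.2-fold higher, 10.14 ± 1.94 (SD, n = 3) against 5.01 ± 1.72 (SD, n = 5), and the 37 PDGFRA arrays lay at 2.28 to 7.16, all below the 3. Met, the receptor of hepatocyte growth factor, was at 9.88, 8.96 and 9.15 and at 4.03, 4.82, 5.29, 4.46 and 5.42. Here the sets were 3.54 apart, the difference of the means was 4.53 or 23.1-fold, and no PDGFRA array, at 2.33 to 6.90, reached the 3. Hmga2, a chromatin protein of embryonic tissue, was at 12.10, 11.27 and 11.41 and at 9.78, 7.52, 7.43, 9.82 and 8.44. Its difference was 2.996, and the 5 arrays fell into 2 levels, with arrays 41 and 46 near 9.8 and arrays 42, 43 and 47 between 7.43 and 8.44. The PDGFRA arrays lay at 3.88 to 8.99.

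Olig2 was at 7.61, 8.34 and 8.92 in the 3 arrays and at 11.06, 9.76, 11.01, 11.29 and 11.14 in the 5, a difference of -2.56. Array 42 was the lowest of the 5 and the sets still lay 0.843 apart. Of the 37 PDGFRA arrays, 4 lay at or below the highest of the 3. Gpr17 was at 5.26, 7.20 and 6.08 and at 11.28, 10.33, 12.33, 10.29 and 11.52, 31.3-fold lower in the mean, 6.18 ± 0.97 (SD, n = 3) against 11.15 ± 0.86 (SD, n = 5). The sets lay 3.09 apart, and 1 PDGFRA array reached as low as the highest of the 3. Low Olig2 also occurred among the PDGFRA arrays, whereas Arg1, Met and Hmga2 at the level of the 3 arrays did not.

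**Figure D1:**
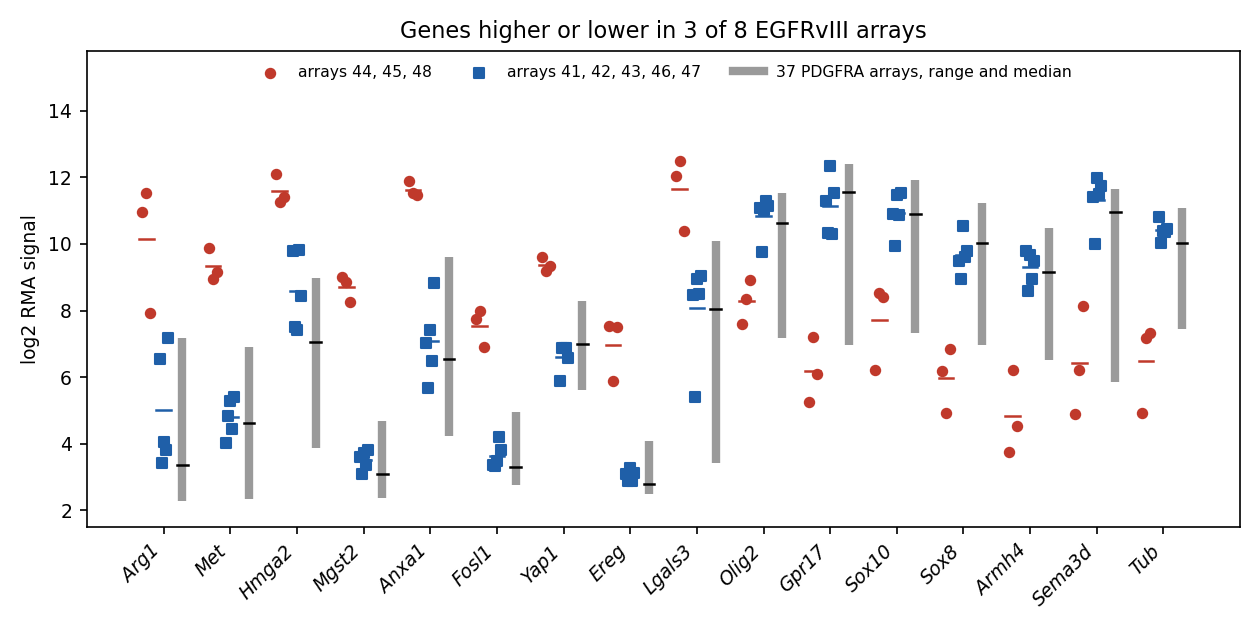
Log2 RMA signal (vertical axis) of 16 genes in the 3 EGFRvIII arrays (circles), the 5 EGFRvIII arrays (squares) and, as a bar with the median as a line, the range of the 37 PDGFRA arrays; short coloured lines are means. Met lies between 8.96 and 9.88 in arrays 44, 45 and 48 and between 4.03 and 5.42 in the other 5, and Gpr17 lies between 5.26 and 7.20 against 10.29 to 12.33.

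With each gene read from its brightest probe set, the largest difference upward was that of Mgst2, a microsomal glutathione transferase that also makes leukotriene C4. It was at 9.01, 8.87 and 8.27 in the 3 arrays and at 3.59, 3.08, 3.71, 3.38 and 3.82 in the 5, below the table median in all 5. The difference was 5.20, and the PDGFRA arrays did not exceed 4.69. Acpp, the prostatic acid phosphatase, was at 9.70, 7.85 and 6.36 and at 3.49, 3.22, 3.22, 3.16 and 3.31, and Adh7, an alcohol dehydrogenase that acts on retinol, at 9.54, 9.67 and 7.48 and at 4.92, 4.32, 4.15, 4.17 and 4.32. Both were lowest of the 3 in array 48. The other probe set of Adh7 differed by 5.99, more than Mgst2. Mgst2, Acpp and Adh7 are among the 56 genes kept only through the 3 arrays, as are Fosl1, Igf2bp3, Epha2, Ereg and Pdgfd below. Anxa1, the annexin that binds formyl peptide receptors, was at 11.88, 11.53 and 11.46 and at 7.01, 5.67, 7.41, 6.48 and 8.82, so the 3 were nearly level and array 47 was the highest of the 5. The acute phase gene Saa3 was at 8.41, 10.49 and 8.66 and at 4.06, 3.55, 4.59, 5.86 and 5.65. The others of the 15 with the largest differences were Tes, Myof, Tpm2, Thbs2, Cth, Tgif1, Steap1 and Gpx8, with differences from 3.99 to 4.33, beside Arg1 and Met. Several of these belong to the cytoskeleton and the cell edge: Tes is a focal adhesion protein, Myof acts in membrane repair and Tpm2 is a tropomyosin. Cth makes cysteine, and Gpx8 is a peroxidase of the endoplasmic reticulum.

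Of 22 mesenchymal glioma markers that were kept, 14 were higher in the 3 arrays and none was lower, and all 22 differences were above 0. Their median difference was 2.38, against 0.02 for all genes. The list holds genes used to name the tumours and was chosen with results of these data known. It holds 1 gene that passed the filter on dim genes only through the 3 arrays. Its mean per array was 9.97, 10.06 and 9.30 in the 3 and 7.08, 6.52, 7.97, 7.76 and 8.22 in the 5, and none of the 37 PDGFRA arrays reached the lowest of the 3. Lgals3, the galectin of macrophages and mesenchymal cells, was at 12.04, 12.49 and 10.39 and at 8.47, 5.40, 8.94, 8.49 and 9.04. Plaur, the urokinase receptor, was at 7.78, 8.24 and 8.76 and at 4.58, 4.47, 5.34, 5.76 and 5.34. The hyaluronan receptor Cd44 was at 11.48, 11.01 and 11.25 and at 7.98, 6.83, 9.54, 9.05 and 9.34, and no PDGFRA array reached the 3. Timp1, S100a11, Anxa2, Lgals1, Fn1, Tnc, Plau, Relb and Il4ra were also among the 14. Vim, the intermediate filament, differed by 0.44 only, from 12.25 to 13.03 over all 8 arrays, and S100a4, S100a6, Casp1, Tgfbi and Chil1 overlapped between the sets.

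Of 16 kept transcription factors tied to the mesenchymal form, 7 were higher and 1, Zeb2, was lower, with a median difference of 1.09. Of the 16, 1, Fosl1, was kept only through the 3 arrays. Fosl1, a subunit of AP-1, was at 7.74, 7.97 and 6.90 in the 3 and at 3.37, 3.34, 3.47, 4.21 and 3.81 in the 5, all below the table median. Runx1 was at 9.001, 9.45 and 7.91 and at 6.26, 4.85, 5.62, 5.65 and 6.37. The coactivator Yap1 was at 9.61, 9.18 and 9.32 and at 5.88, 6.88, 6.88, 6.86 and 6.58, a difference of 2.76, and its partners Wwtr1, which encodes TAZ, and Tead1 differed by 2.46 and 2.10. Cebpb, with 2.25, and Fosl2, with 1.86, were the other members that were higher. For Fosl1, Runx1, Yap1, Wwtr1, Cebpb and Tead1 no PDGFRA array reached the lowest of the 3. Stat3 differed by 0.09 and overlapped. The repressor Zeb2, known from glia and from epithelial to mesenchymal transition, was at 8.74, 8.02 and 8.47 and at 9.46, 9.04, 10.31, 9.10 and 10.08. Of 3 kept oncofetal genes Hmga2 and Igf2bp3 were higher, the latter by 2.33, and Igf2 overlapped. Igf2bp3 was kept only through the 3 arrays.

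Promoter windows of RefSeq (build GRCm38.p6), from 250 bases before to 50 bases after a start, were searched on both strands for the AP-1 motif TGANTCA. The sequences below belong to 4 genes higher in the 3 arrays whose window holds it. They are shown because Fosl1 and Fosl2, subunits of AP-1, were also higher, and they were chosen after their values were seen. Only the 250 bases before the start are printed, with the match in capitals.
Met (chr6:17463707-17463956, plus strand): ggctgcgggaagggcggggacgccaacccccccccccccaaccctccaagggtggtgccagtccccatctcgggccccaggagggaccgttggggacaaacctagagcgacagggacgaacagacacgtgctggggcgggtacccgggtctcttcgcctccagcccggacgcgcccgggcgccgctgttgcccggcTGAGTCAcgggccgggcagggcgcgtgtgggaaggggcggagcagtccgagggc
Mgst2 (chr3:51660929-51661178, plus strand): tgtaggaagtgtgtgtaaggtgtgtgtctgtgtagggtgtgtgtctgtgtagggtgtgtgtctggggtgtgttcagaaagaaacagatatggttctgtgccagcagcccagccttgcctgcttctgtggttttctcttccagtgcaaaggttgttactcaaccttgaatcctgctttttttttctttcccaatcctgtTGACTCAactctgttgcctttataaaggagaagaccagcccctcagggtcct
Plaur (chr7:24462233-24462482, plus strand): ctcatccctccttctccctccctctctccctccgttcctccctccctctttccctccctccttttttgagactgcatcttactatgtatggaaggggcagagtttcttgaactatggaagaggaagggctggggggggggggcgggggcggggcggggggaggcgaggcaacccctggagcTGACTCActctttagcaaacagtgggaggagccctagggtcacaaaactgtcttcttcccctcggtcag
Adh7 (chr3:138217523-138217772, plus strand): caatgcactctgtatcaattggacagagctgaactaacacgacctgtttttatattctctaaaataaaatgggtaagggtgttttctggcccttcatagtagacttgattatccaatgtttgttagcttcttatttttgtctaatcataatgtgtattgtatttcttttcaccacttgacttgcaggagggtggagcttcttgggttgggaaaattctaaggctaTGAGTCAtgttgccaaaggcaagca
Counted from the start, the match begins at -54 in Met, -52 in Mgst2, -69 in Plaur and -25 in Adh7.
Of 12296 windows of 9530 kept genes, 5.29% held the motif. It was found in 9.19% of the 838 windows of 658 genes higher in the 3 arrays and in 4.3% of the 906 windows of 649 genes lower. The TEAD motif GGAATG was in 12.3% of all windows, in 14.9% of those of genes higher and in 13.5% of those of genes lower. The SOX motif AACAAAG was in 3.82%, 5.49% and 4.75% in the same order. None of the 3 motifs contains another. A match describes letters in a window and is not a site of binding.

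Genes of oligodendrocyte progenitors were among those lower in the 3 arrays. Of 15 kept progenitor surface and matrix genes 12 were lower and none was higher, with a median difference of -3.23. The mean of the list was 5.74, 6.80 and 7.82 in arrays 44, 45 and 48 and 10.01, 9.07, 10.59, 9.58 and 10.30 in the 5. Pcdh15, a protocadherin of these progenitors, was at 3.73, 5.79 and 6.94 and at 9.89, 8.73, 9.85, 9.32 and 9.48, and Tnr, the matrix protein tenascin-R, at 5.61, 7.38 and 8.31 and at 10.23, 9.85, 12.02, 10.42 and 11.80. The proteoglycan Bcan was at 4.55, 5.45 and 8.62 and at 10.07, 8.95, 10.43, 9.59 and 10.06. In each of these array 44 was the lowest and array 48 the highest of the 3. Matn4, Lhfpl3, Dll3, Lims2, Enpp6, Cspg5, Ptprz1 and C1ql1 were the other members below besides Gpr17. Pdgfra, Ncan and Vcan overlapped between the sets. Pdgfra itself, the receptor of these progenitors, was at 4.53, 4.92 and 7.33 and at 9.41, 6.59, 8.27, 8.39 and 8.32. Array 48 lay above array 42, and arrays 44 and 45 below all 5.

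Of 12 kept transcription factors of the oligodendrocyte lineage 9 were lower and none was higher, with a median difference of -2.35. Sox10, which drives the lineage together with Olig2, was at 6.20, 8.52 and 8.42 in the 3 and at 10.88, 9.93, 11.47, 10.86 and 11.53 in the 5. Sox8 was at 6.19, 4.92 and 6.84 and at 9.48, 8.96, 10.53, 9.62 and 9.77, and no PDGFRA array reached as low as the 3. Myt1 differed by -3.66, Nkx2-2 by -2.98, Sox6 by -2.81 and Olig1 by -1.96, with Sox5 and Zfp536 also below. Sox4, Sox11 and Nkx6-2 overlapped. Not all stem cell factors were lower, as Sox2 was at 10.81, 10.58 and 10.65 and at 11.08, 10.41, 10.99, 10.91 and 11.42, with overlap.

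Further genes with the largest differences downward were Sema3d, a secreted guidance cue, at 4.91, 6.22 and 8.15 and at 11.42, 10.01, 11.99, 11.48 and 11.73, and Armh4, at 3.74, 6.22 and 4.54 and at 9.80, 8.58, 9.66, 8.95 and 9.48. Tub, a protein of ciliary traffic, was at 4.94, 7.17 and 7.32 and at 10.81, 10.03, 10.38, 10.36 and 10.45. For Armh4 and Tub no PDGFRA array reached as low as the highest of the 3, whose maximum came from array 45 in Armh4 and from array 48 in Tub. Col19a1, Pdlim3, Fam184b, Col9a3, Grin3a, Col20a1, Neto1, Plxnb3 and Slitrk2 completed the 15, with Gpr17, Pcdh15 and Matn4, and with differences between -3.77 and -4.60 among these 9. Grin3a and Neto1 encode a glutamate receptor subunit and an auxiliary protein of kainate receptors.

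Myelin genes, which mark later stages and host white matter, had a median difference of -1.82. Of 13, 3 (Ugt8a, Mbp and Cldn11) were lower, beside 7.06% of all genes. Mbp was at 9.12, 11.89 and 10.64 and at 12.79, 12.72, 12.63, 11.99 and 12.61. Of 17 astrocyte and radial glia genes 3 were higher and 2 lower, beside 7.21% and 7.06% of all genes, and the median difference was -0.23. Gja1, the astrocyte gap junction protein, was at 11.82, 11.97 and 11.60 in the 3 and at 9.90, 11.59, 9.46, 9.89 and 9.64 in the 5, with array 48 only just above array 42. S100b was at 7.07, 9.45 and 8.10 and at 10.44, 10.50, 11.89, 10.38 and 11.67. Gfap, the filament of astrocytes, was at 8.28, 9.90 and 9.47 and at 8.90, 8.57, 10.10, 8.999 and 7.89, and overlapped.

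The mean of neuron genes, a measure of host brain in the tissue, overlapped between the sets. The median difference of these genes, -0.29, turned to 0.31 without array 42 and to 0.46 without array 44. Their mean was 6.22, 8.35 and 7.15 in the 3 and 7.34, 9.91, 6.58, 7.84 and 5.37 in the 5. Of 16 neuron genes 2, Snap91 and Map2, were lower, beside 7.06% of all genes. Array 42 had the highest content of neuron transcripts of the 8 and array 47 the lowest. Ependymal and choroid plexus genes had a median difference of 0.30, with 1 of 12, Aqp1, higher by 3.70. That count is near the 7.21% of all genes kept that were higher.

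**Figure D2:**
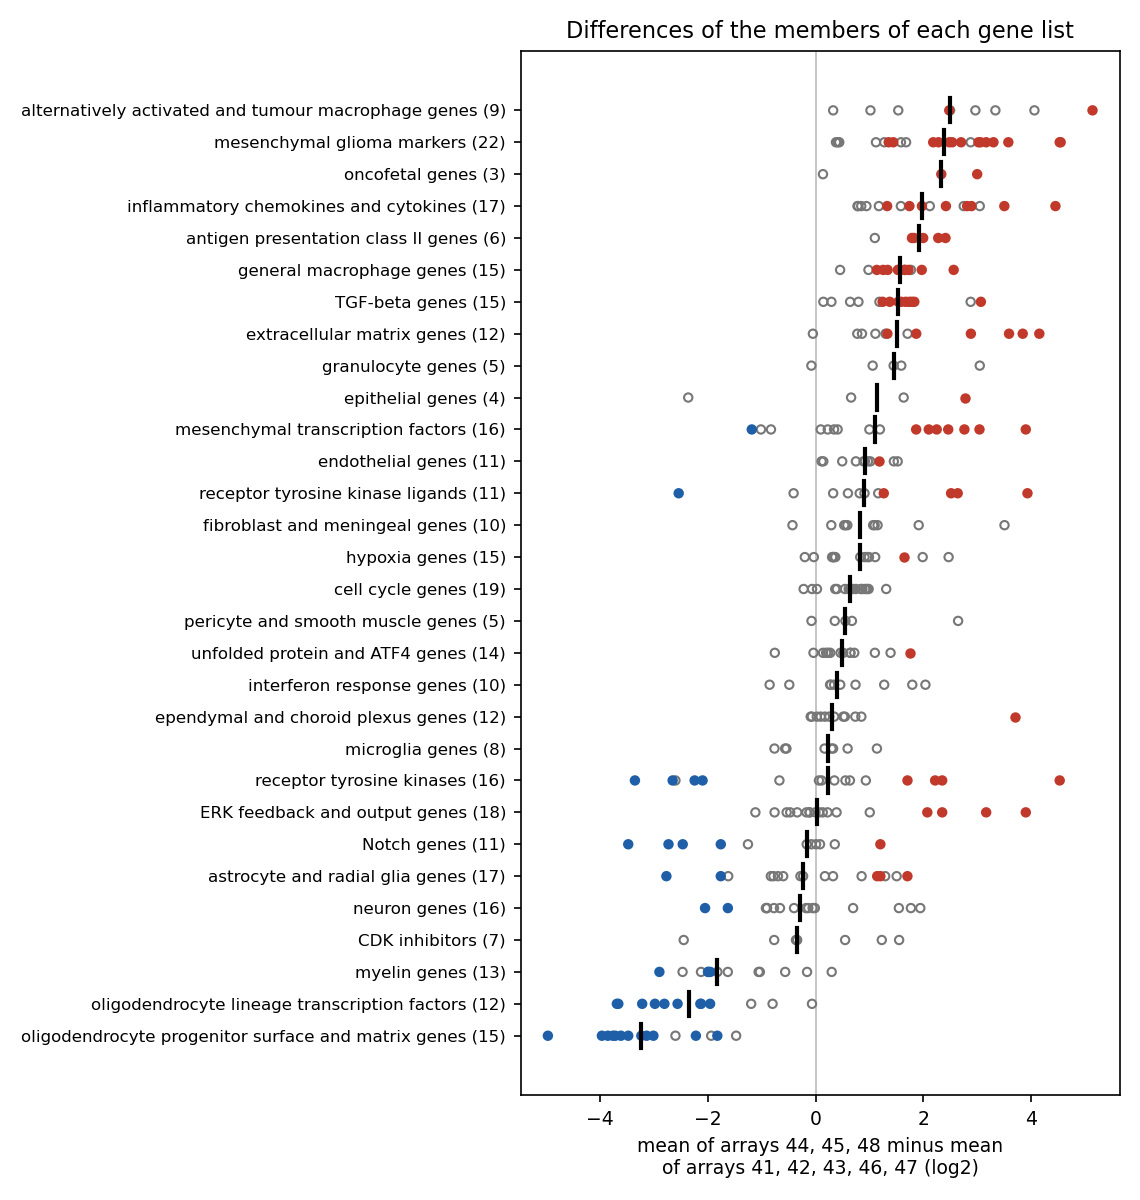
Difference of the means of the 3 and the 5 EGFRvIII arrays (horizontal axis, log2) for each kept member of the 30 lists with at least 3 kept members, whose number is in brackets; filled points did not overlap and differed by at least 1, open points did not meet both conditions, and black lines are medians. Progenitor and lineage genes lie farthest to the left, with medians of -3.23 and -2.35, and mesenchymal markers to the right, with 2.38.

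Members of the Notch pathway, by which neighbouring cells hold each other in the progenitor state, were split. Of 11 kept, the ligands Dll3 and Dll1 and the targets Hes5 and Hey2 were lower, and the target Hes1 was higher by 1.2. Dll3 was at 3.99, 3.69 and 5.52 and at 7.91, 8.23, 7.77, 7.65 and 7.83, and Hes5 at 3.87, 3.06 and 3.40 and at 5.36, 4.37, 6.53, 4.54 and 5.24. Dll3 is counted in the progenitor list too, and Hes1 and Hes5 in the astrocyte list. The receptors Notch1 and Notch3 differed by -0.17 and 0.35 and overlapped.

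Receptor tyrosine kinases went both ways, with 4 of 16 kept members higher and 4 lower. Of the 16, 1, Epha2, was kept only through the 3 arrays. Egfr was at 8.201, 7.20 and 6.89 in the 3 and at 4.53, 6.15, 5.08, 5.56 and 4.75 in the 5, a difference of 2.22, and the 3 of its 6 probe sets that were above the table median in either set differed by 0.40 to 2.66 in the same direction. Whether these probe sets read the EGFRvIII transgene is not given in the sources used here. For Egfr, 5 of the 37 PDGFRA arrays lay at or above the lowest of the 3, up to 7.95 in the Pdgfra WT array. Epha2, an ephrin receptor, was at 7.09, 6.62 and 6.22 and at 3.95, 4.15, 4.54, 4.23 and 4.60, above every PDGFRA array. Met and Fgfr1, the latter with 1.70, were the other members that were higher. Erbb3, the kinase-impaired partner of other ERBB receptors, was at 4.84, 6.67 and 5.87 and at 7.98, 8.66, 10.83, 7.63 and 10.65. Kit, the receptor of stem cell factor, was at 5.87, 5.39 and 5.87 and at 8.35, 7.69, 7.23, 8.58 and 7.92, and Ntrk2 and Ntrk3, the receptors of neurotrophins, differed by -2.10 and -2.65.

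Among the ligands, those of the EGF receptor parted. Ereg, epiregulin, was at 7.53, 5.90 and 7.51 in the 3 and at 3.08, 2.87, 3.28, 2.90 and 3.13 in the 5, and no PDGFRA array passed 4.09. Hbegf, the heparin-binding member, was at 10.72, 11.04 and 11.37 and at 8.89, 7.98, 8.26, 8.22 and 8.70. Tgfa, in contrast, was lower, at 6.81, 7.88 and 8.47 and at 9.95, 9.22, 10.97, 10.48 and 10.68. Pdgfd and Pdgfc, ligands of the PDGF receptors, were higher by 2.51 and 1.26. In all, 4 of 11 kept ligands were higher and 1 lower. Of the 4 higher, Ereg and Pdgfd were kept only through the 3 arrays. The mean of the list was 7.55, 7.48 and 7.19 against 6.26, 6.18, 6.42, 6.38 and 6.71, with no PDGFRA array at the level of the 3.

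Output of the ERK pathway below these receptors was uneven. Of 18 kept feedback and output genes 4 were higher, Fosl1, Plaur, Epha2 and the phosphatase Dusp4, and none was lower, and the median difference was 0.03. Of these 4, Fosl1 and Epha2 were kept only through the 3 arrays. Dusp4 was at 8.38, 7.73 and 9.37 and at 6.29, 6.42, 5.72, 7.58 and 6.10. The classical feedback genes overlapped: Dusp6 differed by -0.004, Spry4 by -0.76, Etv5 by 0.22 and Etv4 by -1.12. The list mean was 9.29, 9.04 and 9.50 in the 3 and 9.04, 8.44, 8.32, 9.15 and 8.77 in the 5, and the highest of the PDGFRA arrays was 8.83. Fosl1, Plaur and Epha2 also belong to other lists.

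Genes of the TGF-beta pathway, a driver of matrix production and of the mesenchymal state in many tissues, were higher in 9 of 15 cases and lower in none. Their median difference was 1.53. Of these 15 genes, 1 was kept only through the 3 arrays. Ltbp1, which tethers the latent ligand to the matrix, was at 10.31, 9.45 and 9.44 and at 6.31, 5.42, 7.35, 7.07 and 7.18, and no PDGFRA array reached the 3. All 3 ligands were higher, Tgfb2 by 1.24 and Tgfb3 by 1.74. Tgfb1 was at 4.73, 5.92 and 4.29 and at 3.57, 2.99, 3.85, 3.42 and 4.22. Only 1 of these Tgfb1 values, 5.92, was above the table median. The lowest Tgfb1 value of the 3 arrays, 4.29, was just above the highest of the other set, 4.22. Tgfbr2, Smad3, Ltbp3, Bmp1 and the target Ccn2 were higher by 1.53 to 1.83. For Tgfbr2 this holds for 1 of 3 probe sets, the other probe sets being at or below the table median. The receptor Tgfbr1 differed by 0.14 and overlapped.

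Of 12 kept matrix genes 6 were higher and none lower, with a median difference of 1.52. Thbs2, thrombospondin-2, was at 9.34, 8.33 and 9.91 and at 3.80, 4.05, 5.13, 4.99 and 7.25. Col8a1, a short-chain collagen, was at 10.09, 9.70 and 8.51 and at 4.74, 5.11, 5.21, 5.51 and 7.38. Col5a2, Loxl1, Col5a1 and Lamc1 were the others. In this group array 47 was the highest of the 5, and its list mean, 6.08, 5.79, 6.66, 6.33 and 7.91 over the 5 arrays against 8.67, 8.73 and 8.10, came within 0.2 of the lowest of the 3. Genes of fibroblasts and meninges had no member that met both conditions among 10 kept, with a median difference of 0.83. A count of none in 10 is near the shares over all genes, 7.21% higher and 7.06% lower. Col3a1 was at 10.50, 9.86 and 7.47 and at 5.03, 5.44, 5.01, 4.47 and 8.92, and Lum at 6.44, 6.66 and 5.84 and at 4.32, 5.16, 4.44, 5.15 and 7.005, with array 47 inside or above the 3.

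Macrophage genes were higher with the split. Of 15 kept general macrophage genes 12 were higher and none lower, with a median difference of 1.56. The mean of the list was 9.75, 10.10 and 9.07 in the 3 and 7.86, 7.75, 8.71, 8.10 and 8.23 in the 5, and 4 of 37 PDGFRA arrays reached the lowest of the 3. Lyz2, lysozyme, was at 12.62, 12.23 and 11.33 and at 9.54, 8.59, 8.66, 9.39 and 11.31, where array 47 was within 0.02 of array 48. The receptors Adgre1 and Csf1r differed by 1.72 and 1.13, and Ptprc, the CD45 gene of all leukocytes, by 1.53. Of 8 genes of resident microglia none met both conditions, near the 7.21% and 7.06% of all genes that were higher and lower. Their median difference was 0.23, and the list means overlapped, at 7.85, 7.58 and 6.96 and at 7.59, 7.02, 8.24, 7.08 and 6.99. P2ry12, the receptor that defines microglia, was at 7.83, 5.62 and 7.54 and at 8.16, 7.72, 8.88, 6.89 and 6.05.

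Genes of alternatively activated and tumour macrophages were higher for 2 of 9, Arg1 and Fn1, and all 9 differences were above 0. Their level varied among the 3: Chil3, a chitinase-like protein, was at 11.21, 9.61 and 3.73 and at 4.07, 3.40, 4.75, 4.10 and 4.32, so that array 48 lay among the 5. Mrc1, the mannose receptor, was at 10.02, 8.21 and 6.93 and at 4.51, 4.85, 3.92, 4.47 and 7.51, and array 47 lay above array 48. Arg1 is in this list and among the markers of the label. Lgals3, Anxa1, Plaur, Timp1 and Fn1 are made by macrophages as well, and the part of macrophages in the differences of the mesenchymal markers was not tested.

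Genes of antigen presentation by class II were higher for 5 of 6, with a median difference of 1.91. Cd74, the invariant chain, was at 9.69, 8.77 and 9.04 and at 6.37, 6.98, 6.93, 6.64 and 7.54. Of 17 chemokines, cytokines and acute phase genes 8 were higher and none lower, with a median difference of 1.97. Lif, a cytokine of the IL-6 family, was at 8.88, 8.32 and 6.14 and at 4.21, 3.93, 4.39, 4.62 and 4.28. Ccl2 and Ccl7, which attract monocytes, were higher by 2.81 and 2.89, and Cxcl2, Ccl5, Il1b and Nfkbia by 1.33 to 2.42. The granulocyte genes S100a8 and Lcn2 were highest in array 45, at 7.62 and 11.79, and none of 5 in that list met both conditions. Of 12 lymphocyte genes only Cd4 was kept, with a difference of -0.15, and 11 were on the array. Interferon response genes overlapped in all 10 cases, with a median difference of 0.40. The counts of none in the granulocyte and interferon lists are near the 7.21% and 7.06% over all genes.

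Genes of vessels and other tissue components had smaller differences. Of 11 endothelial genes only Tek was higher by at least 1 without overlap, with a median difference of 0.91 and all 11 differences above 0. None of 5 pericyte genes met both conditions, although Acta2, smooth muscle actin, was at 11.73, 12.22 and 7.56 and at 7.83, 7.37, 7.62, 7.61 and 8.88, high in arrays 44 and 45 alone. Of 4 kept epithelial genes Cdh1, E-cadherin, was higher, at 7.25, 6.64 and 4.60 and at 3.35, 3.56, 3.45, 3.42 and 3.23, while Epcam differed by -2.37 with overlap. Of these 4 genes, 1 was kept only through the 3 arrays. Of 15 hypoxia genes only Hk2 was higher, with a median difference of 0.83, and in array 47 the mean of the list, 8.94, was above all 3. Of 14 genes of the unfolded protein and ATF4 responses only Atf3 was higher. These counts of 1 in the endothelial, hypoxia and unfolded protein lists are near the 7.21% of all genes kept that were higher. So is the count of none in the pericyte list.

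Cell cycle genes, a measure of proliferation, overlapped between the sets. Of 19 kept cell cycle genes none met both conditions, and the median difference was 0.64, or 0.18 without array 43. The mean of the list was 8.64, 8.49 and 8.11 in the 3 and 8.204, 7.86, 6.02, 8.32 and 8.64 in the 5, with array 43 far below the rest. None of 7 CDK inhibitor genes met both conditions, near the 7.21% and 7.06% of all genes that were higher and lower. Cdkn2a, which encodes p16 and p19Arf, was at 11.01, 9.80 and 11.15 and at 10.01, 8.47, 8.91, 10.10 and 9.64, and Cdkn1c at 3.83, 4.23 and 5.50 and at 6.04, 6.19, 8.29, 4.88 and 9.45, where array 46 lay below array 48.

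**Figure D3:**
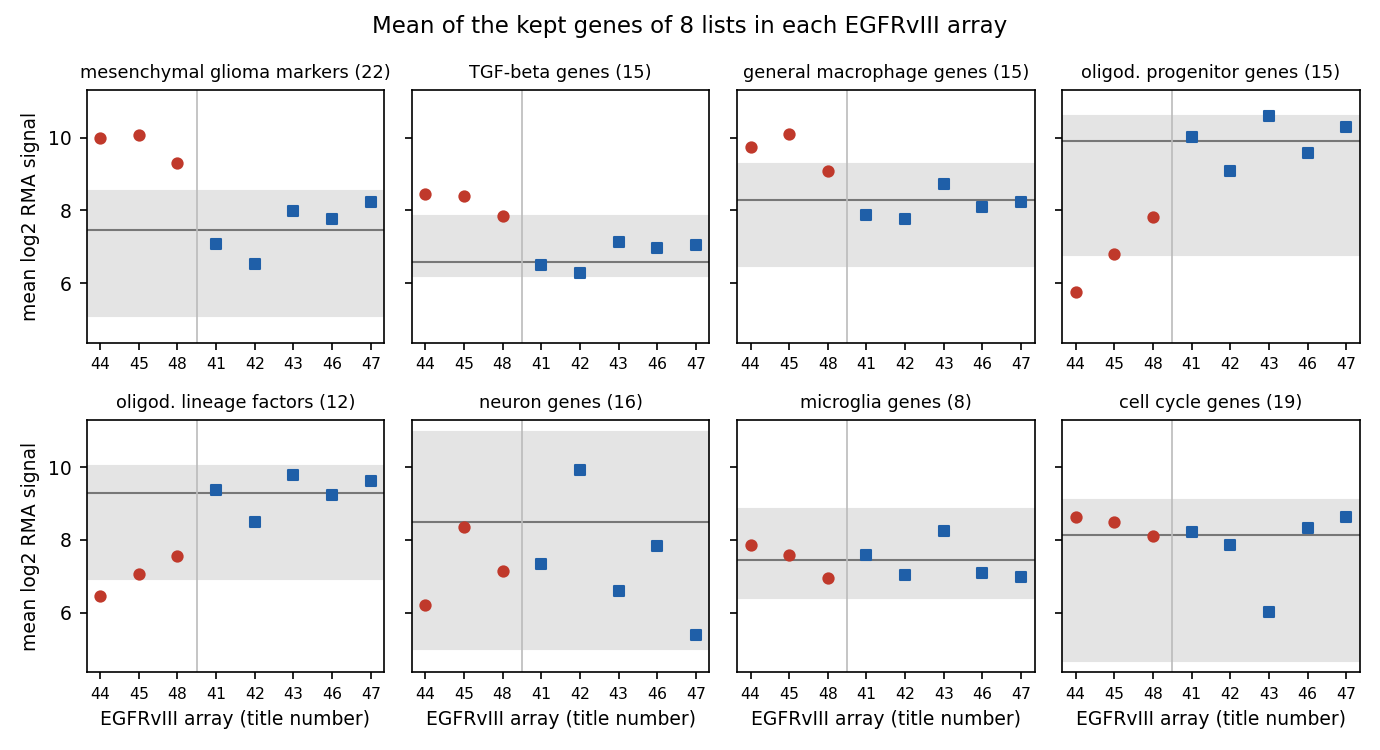
Mean log2 RMA signal of the kept genes of 8 lists (number in brackets) in each EGFRvIII array, with arrays 44, 45 and 48 as circles and the others as squares; the grey band is the range and the grey line the median of the 37 PDGFRA arrays. Mesenchymal markers of the 3 arrays, 9.30 to 10.06, lie above the band, neuron and microglia genes overlap between the sets, and array 43 stands low in cell cycle genes at 6.02.

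The 3 arrays were not equal. Array 48 was the one nearest the 5 for 453 of the 852 genes higher and for 393 of the 834 lower, array 45 for 287 and 330, and array 44 for 112 and 111. Among the 5, array 47 was nearest the 3 for 346 of the genes higher, and array 42 for 300 of the genes lower. Array 42 also had the lowest Olig2 and the most neuron transcripts of the 5. Genes of the Y chromosome did not follow the split: Eif2s3y was at 8.35, 7.25 and 2.72 and at 2.45, 2.54, 2.77, 8.64 and 2.59, and Kdm5d at 6.61, 5.92 and 2.29 and at 2.98, 2.90, 2.62, 7.10 and 2.86, high in arrays 44, 45 and 46. Uty was between 2.502 and 3.16 in all 8 arrays, and between 2.81 and 6.72 in the PDGFRA arrays, 7 of which were at or below the highest of the 3. Xist, the RNA of the inactive X, was at 11.66, 11.73 and 11.40 and at 12.43, 11.32, 12.28, 12.11 and 12.02. The 3 arrays held both patterns of the first 2 genes, as did the 5.

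In none of the PDGFRA genotypes did Met, Arg1 or Hmga2 reach the level of the 3 arrays. Met was highest in E10 del, from 2.96 to 6.90 over 5 arrays, in C450 ins, up to 6.61, and in E7 del, up to 6.60, and its medians by genotype ran from 3.66 in E7 del to 4.98 in D842V beside 5.76 in the single Pdgfra WT array. Arg1 was highest in the Pdgfra WT array, at 7.16, and in 1 V544ins array, at 7.13, and every genotype with several arrays had a median of 4.42 or less. Hmga2 had its highest median in D842V, 8.87, and its lowest in E10 del, 5.54. The D842V median was above the 5 EGFRvIII arrays' median of 8.44 and below all 3. Olig2 was lowest in 1 E10 del.v2 array, number 57, at 7.19, and in E10 del arrays 17, 18 and 19, at 7.53, 7.68 and 7.76. Gpr17 was lowest in array 57, at 6.98, and in E10 del arrays 18 and 19, at 7.32 and 8.64. E10 del arrays 16 and 20 were not low, with Olig2 at 10.75 and 10.94 and Gpr17 at 12.34 and 11.83. The 5 EGFRvIII arrays, with medians of 11.07 and 11.28, lay within the range of the PDGFRA genotypes for both.

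Compared with all other tumours of the series, 342 of the 852 genes higher in the 3 arrays were at a level that none of the 37 PDGFRA arrays reached, and 246 of the 834 lower genes were below all 37. These counts describe arrays chosen for standing apart and are not a test. The same count over all genes kept is not given here, so they have no background to be read against.

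Whether genes of the split vary together outside the 8 arrays that were split was examined in the 36 arrays of the 6 PDGFRA mutants. These 36 arrays did take part in the principal components over all 45 arrays. For each gene the slope on the Olig2 signal was fitted with limma, with a separate level for each genotype and title range, with Benjamini-Hochberg adjustment across 11808 genes. A slope of 1 means that the gene was 1 unit higher where Olig2 was 1 unit higher. Slopes called at an adjusted p under 0.05 were positive for 33.1% of all genes and negative for 24.5%. The Olig2 signal in these arrays was lowest in 4 arrays, E10 del.v2 replicate 2 at 7.19 and E10 del replicates 1, 3 and 2 at 7.53, 7.68 and 7.76, against 9.003 and above in the others. In that order the 4 arrays have the title numbers 57, 17, 18 and 19, and replicate numbers were assigned here, not by the labels. The means of their neuron genes, 9.94 to 10.98, were high, against a median of 8.49 over the PDGFRA arrays. Without these 4 arrays the shares over all genes were 13.2% and 8.53%, so each value is given with and without them. With all 36 arrays and the average of neuron and myelin genes as a covariate for host brain, the shares were 26.7% and 19.7%. Both changes together gave 9.79% and 6.54%. Of the 13 myelin genes in the covariate, 4 had positive Olig2 slopes themselves with all 36 arrays. Members of the covariate were also among the genes tested.

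Genes of the progenitor programme had positive Olig2 slopes in the PDGFRA mutants. All 15 kept progenitor surface and matrix genes were called positive, and 13 of 15 without the 4 arrays. Of 11 lineage transcription factors besides Olig2, 9 were positive with and 9 without the 4 arrays, beside 33.1% and 13.2% of all genes. Gpr17 had a slope of 1.21 ± 0.08 (SE, adjusted p = 2.3e-12), which was 1.21 ± 0.13 without the 4 arrays (adjusted p = 1.5e-06). Within titles 1 to 30 it was 1.12 ± 0.14 and within titles 41 to 64 it was 1.28 ± 0.07 (adjusted p = 1.4e-05 and 3.2e-07). Sox10 had 0.98 ± 0.05 and, without the 4 arrays, 0.71 ± 0.10 (adjusted p = 2.5e-14 and 3.9e-05). Bcan had 0.69 ± 0.05 and 0.91 ± 0.08 (adjusted p = 2.3e-12 and 2.6e-07). Over 36 fits that left out 1 array each, all 15 progenitor genes were called in every fit.

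Of 833 genes lower in the 3 EGFRvIII arrays other than Olig2, 340 had a positive slope, 40.8%, and 164 a negative one, 19.7%. Without the 4 arrays 274 were positive, 32.9%, and 27 negative, 3.24%, beside 13.2% and 8.53% of all genes. The shares were not tested against each other. Leaving out E10 del.v2 replicate 2 alone brought the negative count from 164 to 101. In titles 1 to 30, 289 were positive, 34.7%, and 199 negative, 23.9%, where 30.5% and 21.9% of all genes were called. In titles 41 to 64, 261 were positive, 31.3%, and 54 negative, 6.48%, where 14.6% and 10.6% of all genes were called. Without the 4 arrays and with the host brain covariate 259 were positive, 31.1%, and 19 negative, 2.28%, beside 9.79% and 6.54% of all genes. Tub had 0.34 ± 0.09 (adjusted p = 0.0016) and 0.99 ± 0.11 without the 4 arrays (adjusted p = 3.9e-06). Tgfa, the EGF receptor ligand that was lower in the 3, had 0.74 ± 0.08 and 0.61 ± 0.11 (adjusted p = 9.9e-09 and 7.1e-04). Erbb3 had 0.74 ± 0.15 (adjusted p = 1.1e-04) with all arrays and 0.04 ± 0.27 (adjusted p = 0.93) without the 4, so its call rested on them.

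Of the 852 genes higher in the 3 EGFRvIII arrays 154 had a negative Olig2 slope, 18.1%, and 243 a positive one, 28.5%, beside 24.5% and 33.1% of all genes. Without the 4 arrays the order turned, with 107 negative, 12.6%, and 30 positive, 3.52%, beside 8.53% and 13.2% of all genes. With the host brain covariate as well, 121 were negative, 14.2%, and 23 positive, 2.7%, beside 6.54% and 9.79% of all genes. In titles 1 to 30, 106 were negative, 12.4%, and 218 positive, 25.6%, beside 21.9% and 30.5% of all genes. In titles 41 to 64, 81 were negative, 9.51%, and 68 positive, 7.98%, beside 10.6% and 14.6% of all genes. Leaving out E10 del.v2 replicate 2 alone brought the positive count from 243 to 123. Of 22 mesenchymal glioma markers 1 was negative, Met, and 10 were positive, and without the 4 arrays the counts were 1 and 1. These and the next counts stand beside 24.5% negative and 33.1% positive over all genes, and 8.53% and 13.2% without the 4 arrays. Of 16 mesenchymal transcription factors 2 were negative and 8 positive, against 6 and 3 without the 4 arrays. Leaving out E10 del.v2 replicate 2 alone gave 5 positive, and leaving out E10 del replicate 3 alone gave 4 negative. Over all arrays these genes had slopes in both directions.

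Met had a slope of -0.51 ± 0.19 (adjusted p = 0.022), which was -1.36 ± 0.29 without the 4 arrays (adjusted p = 0.0023). The Met call was lost without E10 del replicate 1, title number 17 (slope -0.44, adjusted p = 0.053). It was also lost without E7 del replicate 1, title number 53 (slope -0.40, adjusted p = 0.060), and with the host brain covariate (slope -0.45, adjusted p = 0.080). The median of Met in the PDGFRA arrays, 4.62, was also below the table median. Met was not called within titles 1 to 30, at -0.41 ± 0.27 (adjusted p = 0.22), or within titles 41 to 64, at -0.60 ± 0.24 (adjusted p = 0.084). Yap1 had -0.31 ± 0.08 and, without the 4 arrays, -0.55 ± 0.15 (adjusted p = 0.0011 and 0.0092). Within titles 1 to 30 Yap1 had -0.44 ± 0.07 (adjusted p = 1.5e-04) and within titles 41 to 64 -0.18 ± 0.13 (adjusted p = 0.31). Hmga2 went the other way, with 0.52 ± 0.11 (adjusted p = 2.4e-04) and 0.30 ± 0.23 without the 4 arrays (adjusted p = 0.35). Arg1, with a median of 3.35 in the PDGFRA arrays and so below the table median, had 0.04 ± 0.22 (adjusted p = 0.88) and -0.58 ± 0.46 (adjusted p = 0.38). A p that misses the threshold does not show that a gene is unrelated to Olig2.

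Macrophage and cell cycle genes were called with all arrays and not without the 4. Of 15 general macrophage genes 14 had positive slopes with all arrays, where 33.1% of all genes did, and 13.2% without the 4. Without the 4 arrays none was called by limma, with 2 positive and none negative at an unadjusted p under 0.05. Of 19 cell cycle genes 18 were positive with all arrays, and without the 4 none was called, with 8 positive at an unadjusted p under 0.05. Their median slopes went from 0.40 to 0.22 for macrophage genes and from 0.74 to 0.42 for cell cycle genes, beside 0.03 for all genes in both fits. The 5 genes most like Olig2, by the highest t values of the slope over 36 arrays, were Sox6, Lhfpl3, Olig1, Scrg1 and Traf4. All 5 were lower in the 3 EGFRvIII arrays, with differences from -3.72 in Lhfpl3 to -1.37 in Traf4. The 5 with the lowest t values, Vti1a, Sort1, Cdkl4, Armc9 and Msra, overlapped between the 3 and the 5.

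**Figure D4:**
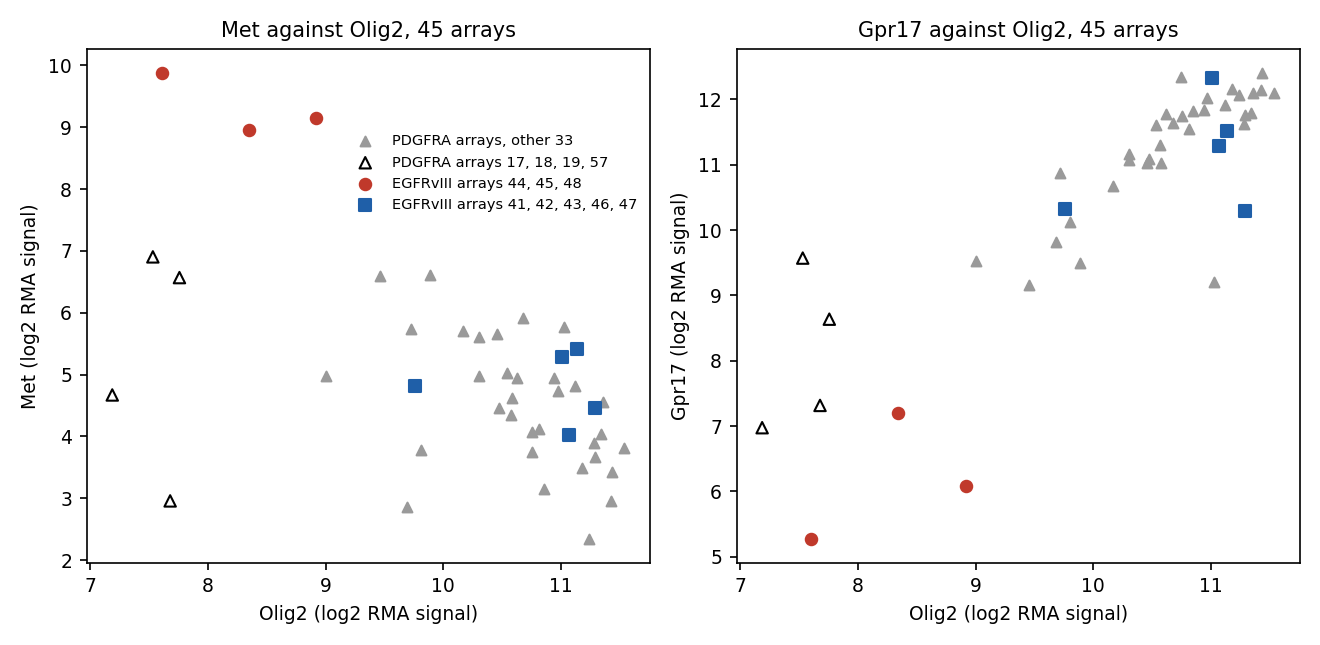
Met (left) and Gpr17 (right) against Olig2, all as log2 RMA signal, in the 8 EGFRvIII arrays and the 37 PDGFRA arrays, of which the 4 with the lowest Olig2 are open triangles. The 3 EGFRvIII arrays lie at Olig2 from 7.61 to 8.92, above all other arrays in Met and at or near the lowest in Gpr17.

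**Figure D5:**
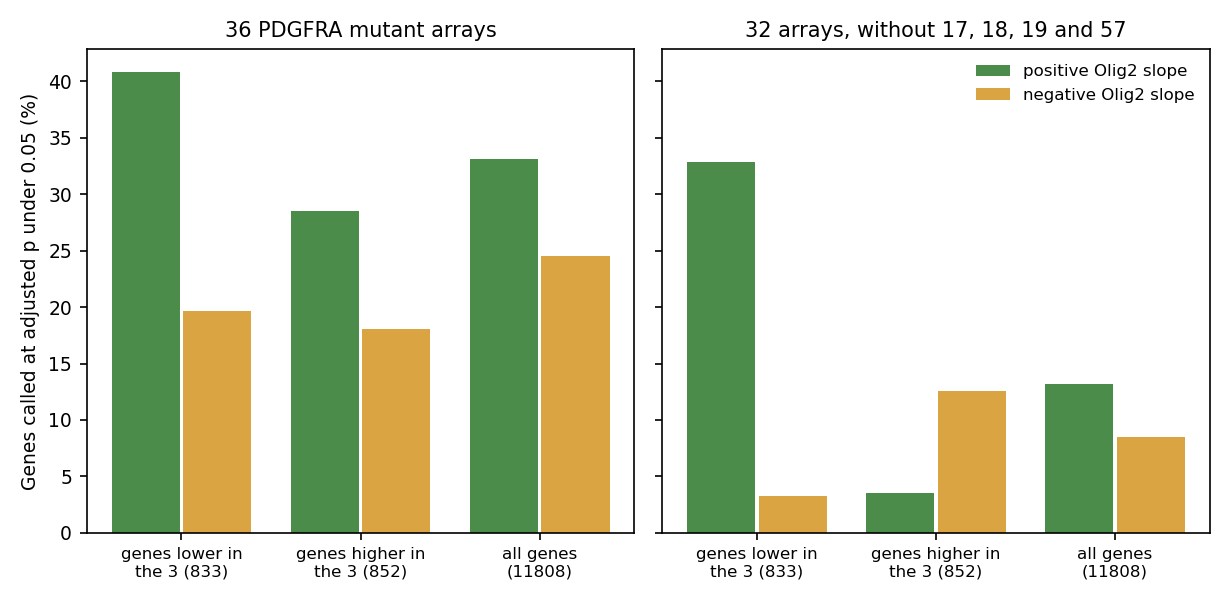
Share of genes (vertical axis, %) with a positive or a negative Olig2 slope at an adjusted p under 0.05 in the PDGFRA mutant arrays, for genes lower in the 3 EGFRvIII arrays, genes higher in them and all genes tested, with all 36 arrays (left) and without 4 of them (right). Without the 4 arrays 32.9% of the genes lower in the 3 were positive against 13.2% of all genes, and 12.6% of the genes higher in the 3 were negative against 8.53%.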

How the data were processed

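RNA of 45 mouse tumours was measured on Affymetrix 3' expression arrays from 100 ng of total RNA, per the labels' protocols. The authors deposited log2 signals made with RMA, per the submitters' processing notes, whose version and settings are not given in the sources used here. RMA corrects background, quantile normalizes and summarises probes, so levels are relative within the set and low values are compressed. Of 45141 probe sets 28898 named 1 gene, 551 several and 15692 none. Each of 17097 genes was read from its probe set with the highest mean, and 11809 genes above the table median (4.79) in at least 3 arrays were kept. Groups came from the genotype label. The number of arrays limits the precision.

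The split of the EGFRvIII arrays, its gene lists (31, with 348 of 447 symbols kept) and the rule for named genes were chosen with earlier results of these data known. The rule took the markers and sex-linked genes, the 15 largest differences in each direction, up to 6 members per list and the 5 genes with the highest and lowest slope statistic. Members named to spell out a count were added after their values were seen. Differences between the 3 and the 5 arrays were described without a test. Across 36 PDGFRA mutant arrays, slopes on Olig2 were fitted with limma 3.58.1 (R 4.3.3) and p-values adjusted by Benjamini-Hochberg, and the script was checked on simulated data. Whether the title ranges 1 to 30 and 41 to 64 are batches is not stated in the labels. The alternatives changed the filter, probe set rule, normalization, covariates, prior, predictor and arrays. Promoters came from RefSeq.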

Additional observations from a re-analysis of the deposited data

Results flagged for a closer look

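Among 51 genes and 31 list means, each looked at in the 5 and in the 8 EGFRvIII arrays, 164 groups in all, 10 had a single array far from the others by Dixon's criterion, which chance meets in about 1 in 20 groups. Array 42 gave 4 of these within the 5 arrays. Its Olig2 signal was 9.76, against 11.01 to 11.29 in the other 4, its Lgals3 signal was 5.40, against 8.47 to 9.04, its Sema3d signal was 10.01, against 11.42 to 11.99, and its Gja1 signal was 11.59, against 9.46 to 9.90. The same array had the highest mean of neuron genes among the 8, 9.91. Array 46 differed from the other 4 in the Y-linked genes Eif2s3y, at 8.64 against 2.45 to 2.77, and Kdm5d, at 7.10 against 2.62 to 2.98. Its Mbp signal was 11.99, against 12.61 to 12.79, and its only kept lymphocyte gene, Cd4, was at 4.55 against 4.84 to 4.95. Array 41 had Adh7 at 4.92, against 4.15 to 4.32. Among all 8 arrays, array 43 had a mean of 6.02 over 19 cell cycle genes, against 7.86 to 8.64 in the other 7.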

How the results depend on the processing

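Counts of genes apart between the 3 and the 5 arrays stayed within 1.5 times of 852 higher and 834 lower under both other filters, the mean of probe sets, centring and quantile normalization. Leaving out 1 array gave 837 to 1226 and 837 to 1103. Without a minimum difference they were 1551 and 1354, and with a minimum of 2 they were 285 and 316. List medians moved without a filter on dim genes for mesenchymal transcription factors (0.39), oncofetal (0.37), granulocyte (0.17), lymphocyte (0.046) and epithelial genes (0.13). With a filter of 9 arrays the oncofetal median was 1.57 and the epithelial one reversed to -2.37, fewer genes being kept. With the mean of probe sets the oncofetal median was 1.65 and that of receptor tyrosine kinase ligands 0.70, and no lymphocyte gene was left. Leaving out 1 array moved the medians of mesenchymal transcription factors (0.78 to 1.43), oncofetal (1.88 to 2.70), astrocyte (-0.28 to 0.28), granulocyte (0.58 to 2.17) and epithelial genes (0.23 to 1.76) and of receptor tyrosine kinase ligands (0.66 to 1.16) by more than their spread between arrays. Within that spread, leaving out 1 array also turned the sign of the medians of neuron (-0.98 to 0.46), interferon response (-0.07 to 0.96), microglia (-0.07 to 0.70) and ERK output genes (-0.09 to 0.35), and moved those of cell cycle genes (0.18 to 0.85), CDK inhibitors (-0.48 to -0.05), myelin (-2.39 to -1.13), ependymal (0.11 to 0.43), lymphocyte (-0.26 to -0.09), endothelial (0.58 to 1.06), pericyte (0.34 to 0.68), receptor tyrosine kinase (0.15 to 0.33), hypoxia (0.52 to 0.95) and Notch genes (-0.49 to -0.08) past 1.5 times.

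Olig2 slopes were called positive for 3911 and negative for 2896 genes, and for 3136 to 4059 and 2219 to 3000 without 1 array. The counts were 1719 and 1250 in titles 41 to 64 alone, 1560 and 1007 without the 4 arrays of lowest Olig2, and 390 and 515 with Met as predictor and its sign turned. Without the 4 arrays and with the host brain covariate, an alternative added after the data were seen, they were 1156 and 772. The cause was not tested. The slope of the neuron gene Stmn2 was -0.84 and reversed to 0.29 with a neuron covariate that holds Stmn2 itself. No paired analysis was possible because the labels give no replicate numbers and the arrays carry no shared number across groups. Depth does not apply to arrays, and genes with signals below the table median have compressed differences.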
